A study of Sus scrofa with 30 samples.

Results

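Tight junction genes were followed through the reproductive cycle of the sow mammary gland, using the summed transcripts of 9 genes chosen by name. These were the claudins CLDN1, CLDN3, CLDN4, CLDN7 and CLDN8, occludin (OCLN), the junctional adhesion molecule F11R, and the cytoplasmic plaque proteins TJP1 and CGN. Transcripts of 8 of the 9 genes were measured, 24 of the 61773 transcripts in the table, while CLDN3 was not analysed here. Each gene level is the sum over its reference transcripts, in TPM, the share of all transcripts after correction for length, as the deposited table holds it (called units). Parenchyma from the left side of the udder was sampled from 30 multiparous Danish Landrace × Yorkshire half-siblings, 6 sows at each of 5 stages. Gestation was sampled on days 70 (mid, MG) and 110 (late, LG), lactation on days 2 (early, EL) and 10 (peak, PL) after farrowing, and the weaned gland 2 days after weaning (W2). No treatment or genetic change was applied, and every stage was taken from different sows.

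Tight junctions are the uppermost contacts between epithelial cells and seal the space between them. Claudins form the sealing strands and set which ions pass, occludin and F11R are further membrane proteins of the contact, and TJP1 and CGN tie these proteins to the actin cytoskeleton. In the mammary gland the junctions between secretory cells are known to be leaky in pregnancy, to close around the onset of copious milk secretion, and to open again when milk removal stops. The design therefore allows the junction genes to be compared before, during and after lactation.

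The genes lie on 6 chromosomes of the Sscrofa11.1 assembly. CLDN1 (chr13:127714857-127730628) and CLDN8 (chr13:193563314-193564090) share chromosome 13. CLDN3 (chr3:11019073-11020102) and CLDN4 (chr3:11039711-11053930) are neighbours on chromosome 3. CLDN7 is at chr12:52612517-52628376, OCLN at chr16:47600175-47652435 and TJP1 at chr1:144930387-145195857. F11R (chr4:89425101-89447889) and CGN (chr4:97704805-97730498) are both on chromosome 4.

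In each stage, 3 of the 6 samples were near-identical to each other and to the mean of the other 3, with a median relative difference of at most 1.80% to 1.85% between them against 19.6% to 59.8% between the others. They were not counted, so n = 3 sows per stage, and the samples counted were MG_1, MG_3, MG_6, LG_1, LG_3, LG_4, EL_3, EL_4, EL_6, PL_2, PL_3, PL_6, W2_2, W2_3 and W2_6. Another label field named the samples titled MG as early lactation and those titled EL as mid-gestation. The titles were followed, and any result on MG or EL depends on that choice. Milk protein transcripts took 11.3% to 16.4% of all units in MG, 20.0% to 25.5% in EL and 10.5% to 13.9% in W2. In PL they took 24.9% and 22.6% in PL_3 and PL_6 but 40.8% in PL_2, a library that also had the lowest level of most of the genes described here. Luminal epithelial markers were measured in all samples except KRT7, which was listed at 0 in 6 of 15, and EPCAM, a protein of the epithelial cell surface, lay between 475 and 754 units throughout.

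**Figure D1:**
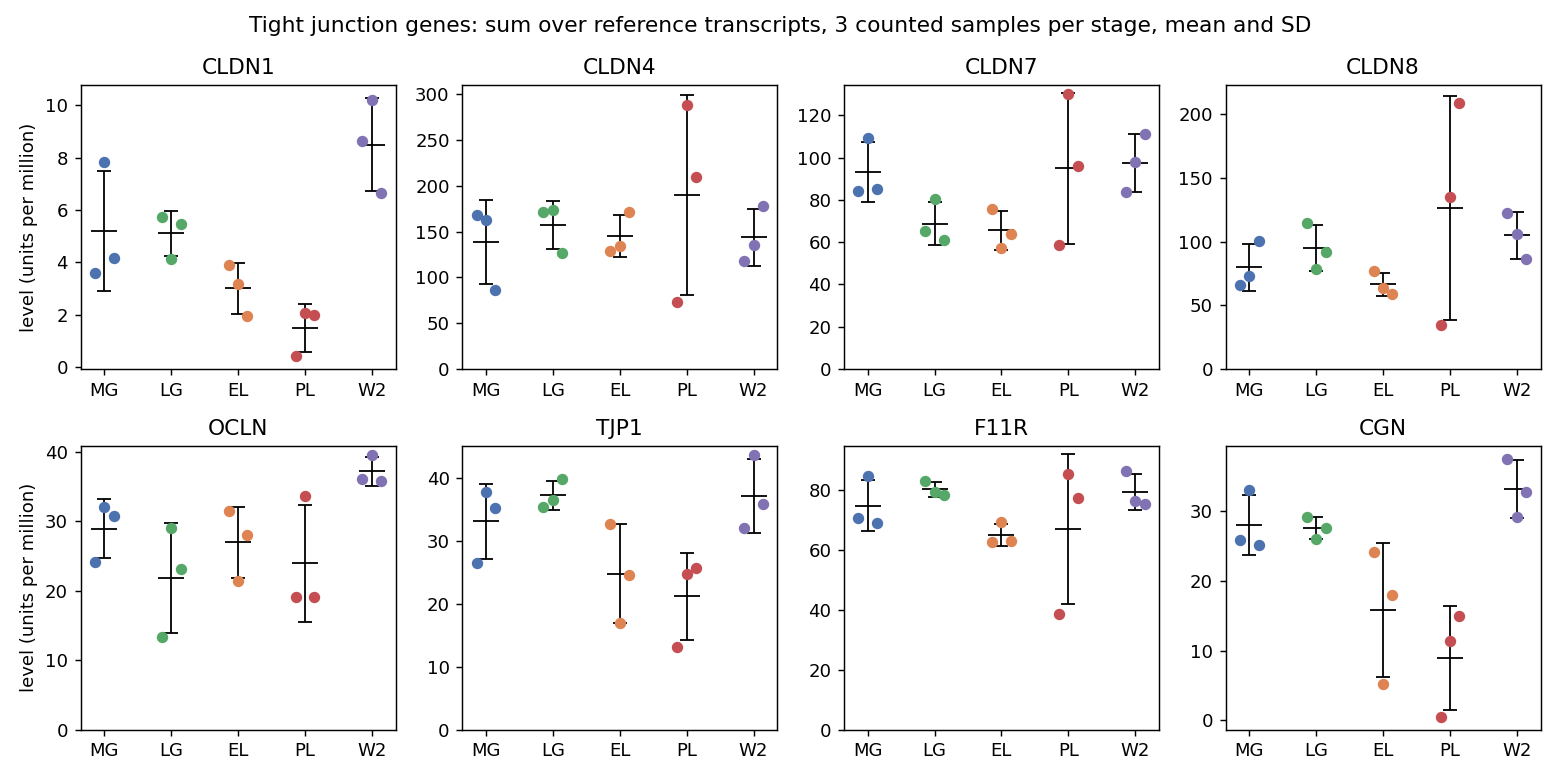
Level of each tight junction gene (y axis, units, a separate scale for each gene) at the 5 stages (x axis). Points are the 3 counted samples of a stage, and the bars are their mean and SD; CLDN1 was lowest in PL, mean 1.50 units, and highest in W2, mean 8.50 units, while CLDN4 samples overlapped between all stages.

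CLDN1, a claudin that is needed for barrier formation in several epithelia, was the least abundant of the 4 claudins among the 8 genes. It was the only gene of the 8 that differed between stages in the F test over all 5 stages (limma, adjusted p = 0.0148). In that test 18.3% of all 26019 gene sums passed. Its level was 3.59, 7.84 and 4.18 units in MG, and 5.73, 4.12 and 5.47 units in LG. It was 3.90, 3.18 and 1.97 units in EL, and 0.425, 2.07 and 2.00 units in PL. After weaning it was 8.62, 10.2 and 6.65 units. Every W2 sample was above every LG, EL and PL sample, and every PL sample was below every MG and LG sample, while PL and EL overlapped, as did W2 and MG.

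CLDN1 rose from PL to W2 by 2.29 on the log2 scale (limma, SE 0.41, adjusted p = 0.0017), a ratio of stage means of 5.68. Compared with gestation, CLDN1 in PL fell by 1.58 against MG (limma, SE 0.41, adjusted p = 0.016) and by 1.62 against LG (limma, SE 0.41, adjusted p = 0.022). The difference between PL and EL was -0.92 (limma, SE 0.41, adjusted p = 0.25) and that between W2 and EL was 1.38 (limma, SE 0.41, adjusted p = 0.097). Fewer cells of a type and less RNA per cell cannot be told apart in pieces of whole tissue. The rise from PL to W2 held in each of the 13 other settings, at 1.60 to 2.66, and when each of the 15 samples was left out, at 1.81 to 2.55. Not all settings are independent checks. Some add the near-identical samples, and the highest transcript alone holds the same CLDN1 values. The call against LG was lost without LG_1, LG_4 or PL_2 (-1.54, -1.57 and -1.13; limma, adjusted p 0.071, 0.077 and 0.052), and the call against MG without MG_3 (-1.27; limma, adjusted p = 0.074). The call against MG was also lost under quantile normalization (-1.01; limma, adjusted p = 0.056), median ratio scaling (-1.10; limma, adjusted p = 0.078) and scaling by luminal markers (-1.53; limma, adjusted p = 0.061). With only the compared stages in the fit both calls were lost (limma, adjusted p = 0.14 against MG and 0.15 against LG). CLDN1 had 1 transcript in the table, so the highest transcript alone held the same values and fold changes. Fitted and adjusted over all 61773 transcripts, neither difference passed (limma, adjusted p = 0.063 against MG and 0.081 against LG).

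CLDN4, CLDN7 and CLDN8 made up nearly all of the claudin units. CLDN4, which limits the passage of sodium in many epithelia, had the highest stage means of the 8 genes, from 139 ± 46.0 units in MG to 190 ± 109 units in PL (SD, n = 3). In PL it was 72.9, 288 and 209 units, and in W2 118, 135 and 178 units. The order of its stage means was MG, W2, EL, LG and PL, and each neighbouring pair of stages overlapped. Between PL and W2 the difference was -0.21 on the log2 scale (limma, SE 0.42, 95% interval -1.12 to 0.70, adjusted p = 0.74).

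CLDN7, a claudin that also lies along the side membrane of epithelial cells and binds EPCAM, was 84.4, 109 and 85.2 units in MG and 65.3, 80.2 and 60.9 units in LG. It was 75.5, 57.2 and 63.8 units in EL, 58.8, 130 and 96.1 units in PL, and 83.7, 97.9 and 111 units in W2. All MG and W2 samples were above all LG and EL samples, but no comparison passed the test. Between W2 and EL the limma difference was 0.57 (SE 0.25, adjusted p = 0.18), and between W2 and PL it was 0.10 (SE 0.25, 95% interval -0.44 to 0.64, adjusted p = 0.79).

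CLDN8, which acts with CLDN4 in the kidney collecting duct, was 34.3, 135 and 209 units in PL, with PL_2 below and the other PL samples above all samples of the other stages. In EL it was 76.6, 63.8 and 59.1 units, and in W2 123, 106 and 86.2 units. Every W2 sample lay above every EL sample, whereas PL lay on both sides of every stage. The difference between W2 and PL was 0.06 (limma, SE 0.48, 95% interval -0.99 to 1.12, adjusted p = 0.95).

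Occludin was highest after weaning. Its level was 36.1, 39.6 and 35.8 units in W2, against 19.1, 33.6 and 19.1 units in PL and 24.1, 32.1 and 30.7 units in MG. The W2 samples were above all samples of the other 4 stages, with 33.6 units in PL_3 the nearest. The order of the other stage means was LG (21.9 ± 7.91), PL (23.9 ± 8.41), EL (27.0 ± 5.14) and MG (28.9 ± 4.27), with each neighbouring pair overlapping (SD, n = 3). The difference between W2 and PL was 0.68 (limma, SE 0.29, 95% interval 0.05 to 1.30) and did not pass after adjustment (limma, adjusted p = 0.090).

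F11R, an immunoglobulin-like adhesion protein that joins neighbouring cells, had the narrowest range of stage means relative to its level, from 65.1 ± 3.80 units in EL to 80.3 ± 2.42 units in LG (SD, n = 3). In PL it was 38.6, 85.4 and 77.5 units and in W2 86.3, 76.4 and 75.4 units. Outside PL_2, F11R lay between 62.8 and 86.3 units in all 14 samples. Between W2 and PL the difference was 0.32 (limma, SE 0.24, 95% interval -0.19 to 0.83, adjusted p = 0.32).

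TJP1, the scaffold protein also known as ZO-1, was 26.4, 37.7 and 35.1 units in MG and 35.3, 36.5 and 39.7 units in LG. It was 32.7, 17.0 and 24.5 units in EL and 13.1, 24.7 and 25.6 units in PL. In W2 it was 32.0, 43.5 and 35.9 units. All PL samples lay below all MG, LG and W2 samples, and 1 of the 3 EL samples lay above all of PL. TJP1 rose from PL to W2 by 0.85 on the log2 scale (limma, SE 0.28, adjusted p = 0.036). Its differences in PL were -0.68 against MG (limma, SE 0.28, adjusted p = 0.095) and -0.86 against LG (limma, SE 0.28, adjusted p = 0.058).

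CGN (cingulin), a plaque protein that binds TJP1 and regulators of the small GTPase RhoA, varied more between stages than TJP1, with a ratio of 3.73 between its highest and lowest stage mean against 1.76. Its level was 25.9, 33.1 and 25.1 units in MG and 29.2, 26.0 and 27.7 units in LG. In EL it was 24.2, 5.23 and 17.9 units, and in PL 0.469, 11.3 and 15.0 units. In W2 it was 37.6, 29.3 and 32.8 units. The PL samples were below all MG, LG and W2 samples, and the EL samples were below all MG and LG samples. CGN rose from PL to W2 by 2.58 on the log2 scale (limma, SE 0.82, adjusted p = 0.031). Its differences in PL were -2.33 against MG (limma, SE 0.82, adjusted p = 0.056) and -2.32 against LG (limma, SE 0.82, adjusted p = 0.076).

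The TJP1 and CGN differences were smaller without PL_2, the library with 40.8% milk protein, whose part was not tested further. Without it, the rise of CGN from PL to W2 was 1.31 (limma, adjusted p = 0.060) and that of TJP1 was 0.54 (limma, adjusted p = 0.12). The CGN call was also lost without W2_2, W2_3 or W2_6 (2.49, 2.67 and 2.58; limma, adjusted p 0.077, 0.067 and 0.074), and the TJP1 call without W2_3 or W2_6 (0.73 and 0.87; limma, adjusted p 0.11 and 0.075). CLDN8, CLDN7 and F11R turned to lower values in W2 without PL_2, at -0.70, -0.21 and -0.039, and none of these passed. Against the earlier stages, CLDN8 in PL, with only PL_3 and PL_6 left, was higher than in MG by 1.09 (limma, adjusted p = 0.011) and than in EL by 1.34 (limma, adjusted p = 0.0074). CLDN7 was higher than in EL by 0.78 (limma, adjusted p = 0.034) and than in LG by 0.71 (limma, adjusted p = 0.037). Of all gene sums 20.5% were then called in PL vs MG, 7.53% in PL vs EL and 12.4% in PL vs LG. With PL_2 included these differences were 0.33 and 0.58 for CLDN8 and 0.47 and 0.40 for CLDN7, and none passed.

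From PL to W2, 3 of the 8 genes passed the test, CLDN1, TJP1 and CGN, all higher in W2, beside 32.8% of all gene sums. This share is near the background. PL and W2 were fully separated for 4 of the 8 genes, CLDN1, OCLN, TJP1 and CGN, all with W2 higher, beside 40.6% of all gene sums that were separated in that direction. With 3 samples against 3, the exact permutation test cannot give a p below 0.10. The median log2 difference between W2 and PL was 0.50 for the 8 genes and 0.68 for all gene sums, and 0.25 and 0.48 without PL_2. CLDN1 was then the only one of the 8 called, beside 26.8% of all gene sums. With PL_2 included, 7901 of the 8545 gene sums that passed were higher in W2. In PL, CLDN1 was the only one of the 8 genes called against MG, beside 25.2% of all gene sums, and the only one called against LG, beside 14.7%.

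Because so many gene sums moved the same way, the samples were also scaled by median ratios, computed over the transcripts that reached 10 units throughout. Under that scaling the median of all gene sums between W2 and PL was 0.10 and that of the 8 genes was -0.23. Of the gene sums that passed between W2 and PL, 1994 of 3441 were then higher in W2, and between PL and MG 1328 of 2853 were higher in PL, against 580 of 6563 on the deposited scale. CLDN1 was higher in W2 by 1.74 (limma, SE 0.37, adjusted p = 0.0086), whereas CLDN7 was lower, at -0.63 (limma, SE 0.16, adjusted p = 0.023). CGN was 1.98 (limma, SE 0.78, adjusted p = 0.12) and TJP1 was 0.13 (limma, SE 0.18, adjusted p = 0.69). CLDN4 was -0.94 (limma, SE 0.34, adjusted p = 0.096), CLDN8 -0.66, F11R -0.41 and OCLN -0.045. Against MG, CLDN7 in PL was higher by 0.63 (limma, SE 0.16, adjusted p = 0.025) and CLDN1 was -1.10 (limma, SE 0.37, adjusted p = 0.078). On the deposited scale the CLDN7 differences were -0.032 between PL and MG and 0.10 between W2 and PL, so its calls depended on the scaling. Under quantile normalization CLDN7 between W2 and PL was -0.51 (limma, adjusted p = 0.054).

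**Figure D2:**
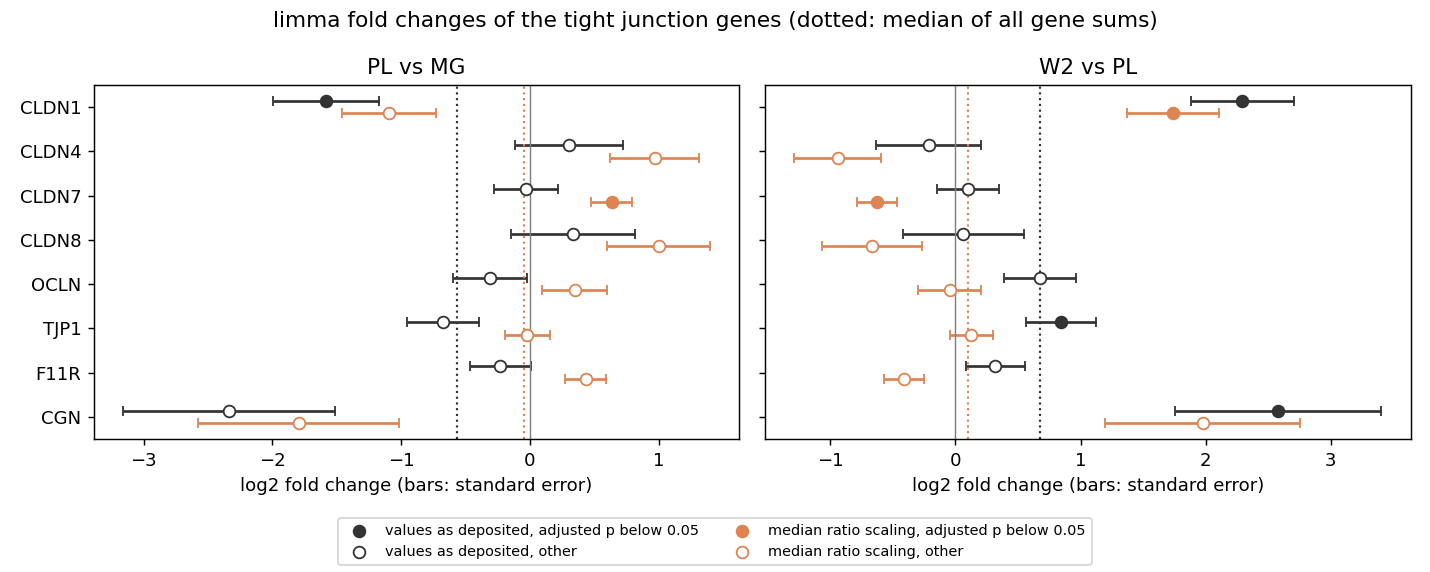
Log2 fold change of each gene (y axis) in PL against MG and in W2 against PL (x axis, log2 scale; bars are the standard error from limma), on the deposited scale (dark) and after median ratio scaling (orange). Filled points have an adjusted p below 0.05 and dotted lines mark the median of all gene sums, 0.68 and 0.10 in W2 against PL; CLDN1 is the only gene filled on both scales in W2 against PL.

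The other 7 comparisons called none of the 8 genes at an adjusted p below 0.05 in limma. LG vs MG had 0 at an unadjusted p below 0.05 (0.0115% of all gene sums called) and EL vs LG had 1 (0.0154% called). That gene was TJP1, at -0.62 (limma, SE 0.28, adjusted p = 0.79). PL vs EL had 1, CLDN1 (4.62% called), and EL vs MG had 0 (0.0269% called). W2 vs MG had 0 (0.0115% called) and W2 vs LG had 1, OCLN, at 0.82 (limma, SE 0.29, adjusted p = 0.57; 0.0346% called). W2 vs EL had 3, CLDN1, CLDN7 and TJP1 (0.553% called). Around farrowing, between LG and EL, the limma difference was -0.70 for CLDN1 (95% interval -1.59 to 0.19) and -1.03 for CGN (95% interval -2.82 to 0.76). The EL samples of CLDN1, CLDN8, TJP1, F11R and CGN were below all LG samples. How many of all gene sums were separated in this way was not counted. The median log2 difference between EL and LG was -0.40 for the 8 genes and -0.22 for all gene sums. OCLN was the only one of the 8 with a positive difference, 0.35 (limma, 95% interval -0.28 to 0.97).

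Shares within a sample do not depend on the scaling between samples. CLDN1 made up 0.255%, 0.372% and 0.386% of the 4 claudins in PL, against 1.37%, 1.23% and 0.664% in EL and 2.59%, 2.93% and 1.74% in W2. In MG the share was 1.12%, 2.22% and 1.51%, and in LG 1.61%, 1.22% and 1.92%. All 3 PL samples, PL_2 included, were below all of the other 12 samples, and for PL against EL, MG and W2 the two-sided exact permutation test reached its floor of p = 0.10 with 3 samples against 3. CLDN4 took the largest share in most samples, 31.1% to 57.8%, CLDN8 took 20.0% to 40.5% and CLDN7 18.3% to 35.3%, and these shares overlapped between PL and W2. For the log2 ratio of CLDN1 to CLDN4, 0.5 was added to each level, which is more than the CLDN1 level in PL_2 (0.425 units). Unlike the shares, this ratio depends in part on the scale of a sample, and the added amount raises it most where CLDN1 is low. So computed, the ratio was -6.31, -6.81 and -6.39 in PL and -3.70, -3.66 and -4.64 in W2. The order of the PL samples in it cannot be read, because PL_2 had the lowest CLDN1 level.

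**Figure D3:**
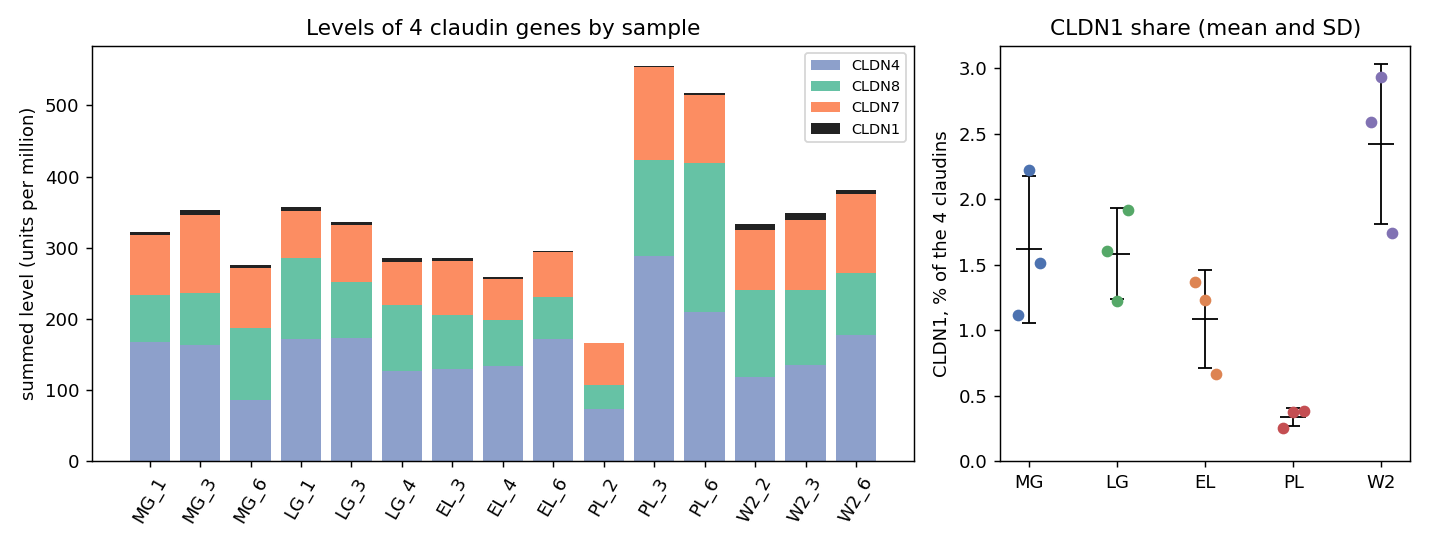
Left, level of the 4 measured claudins in each counted sample (bars stacked, y axis in units). Right, CLDN1 as a percent of the 4 claudins by stage (points are samples, bars the mean and SD); the share was 0.338 ± 0.0718% in PL and 2.42 ± 0.610% in W2.

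With F11R as the reference, 0.5 was again added to each level, which is more than the CGN level in PL_2 (0.469 units). So computed, the log2 ratio of CGN to F11R was -5.33, -2.86 and -2.34 in PL and -1.19, -1.37 and -1.19 in W2, with no overlap (two-sided exact permutation p = 0.10, again the floor). The log2 ratio of TJP1 to F11R was -1.52, -1.77 and -1.58 in PL and -1.42, -0.80 and -1.06 in W2, also without overlap (two-sided exact permutation p = 0.10). In EL both ratios spread widely, from -3.61 to -1.36 for CGN, with EL_4 the lowest of the stage in both. Summed over the 8 genes, the level was 238, 711 and 654 units in PL and 525, 538 and 561 units in W2, so the PL samples lay on both sides of W2. In EL the sums were 437, 372 and 429 units.

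At the transcript level none of the 24 transcripts passed the F test over the 5 stages (limma, adjusted p below 0.05), beside 2.60% of all transcripts, and the lowest adjusted p was 0.064 for the single CLDN1 transcript NM_001244539.1. CLDN1, CLDN8 and F11R each had 1 transcript in the table. One transcript carried most of the level in CLDN4 (NM_001161637.1, 95.7% of the gene's units), CLDN7 (NM_001160076.1, 97.6%) and CGN (XM_005663447.3, 92.6%). A further CLDN4 transcript, XM_013995522.2, had 18.5, 22.3 and 22.2 units in LG_3, W2_3 and W2_6 and was listed at 0 in the other 12 samples. Another, XM_021085910.1, had 34.7 units in EL_6 and at most 2.19 units elsewhere. For CGN, the minor transcript XM_021089857.1 was the higher one in MG_6 (13.4 against 11.7 units) and in PL_2, where XM_005663447.3 was listed at 0.

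TJP1 and OCLN were spread over many transcripts, and which one was highest changed between samples of the same stage. Of the 7 TJP1 transcripts XM_021098866.1 was highest in 10 of 15 samples. TJP1 XM_021098886.1 and XM_021098891.1 were both listed at 0 in LG_1, EL_3, EL_6, PL_2, PL_3 and W2_2, and were 1.33 to 9.42 and 1.01 to 9.47 units in the other 9. A further TJP1 transcript, XM_021098833.1, showed the reverse, with 0.320 to 5.03 units in those 6 samples and 0 in the other 9. The TJP1 gene sums of the 6 and the 9 samples overlapped, at 13.1 to 35.3 and 17.0 to 43.5 units, and the 6 samples came from 4 of the 5 stages. These 3 transcripts were picked after their values were seen. OCLN had 5 transcripts, each of them the highest in at least 1 sample, and NM_001163647.2 was the highest in 5 samples. In PL_2 nearly all OCLN came from NM_001163647.2, at 19.0 units, a transcript listed at 0 in PL_3, MG_1 and W2_2.

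**Figure D4:**
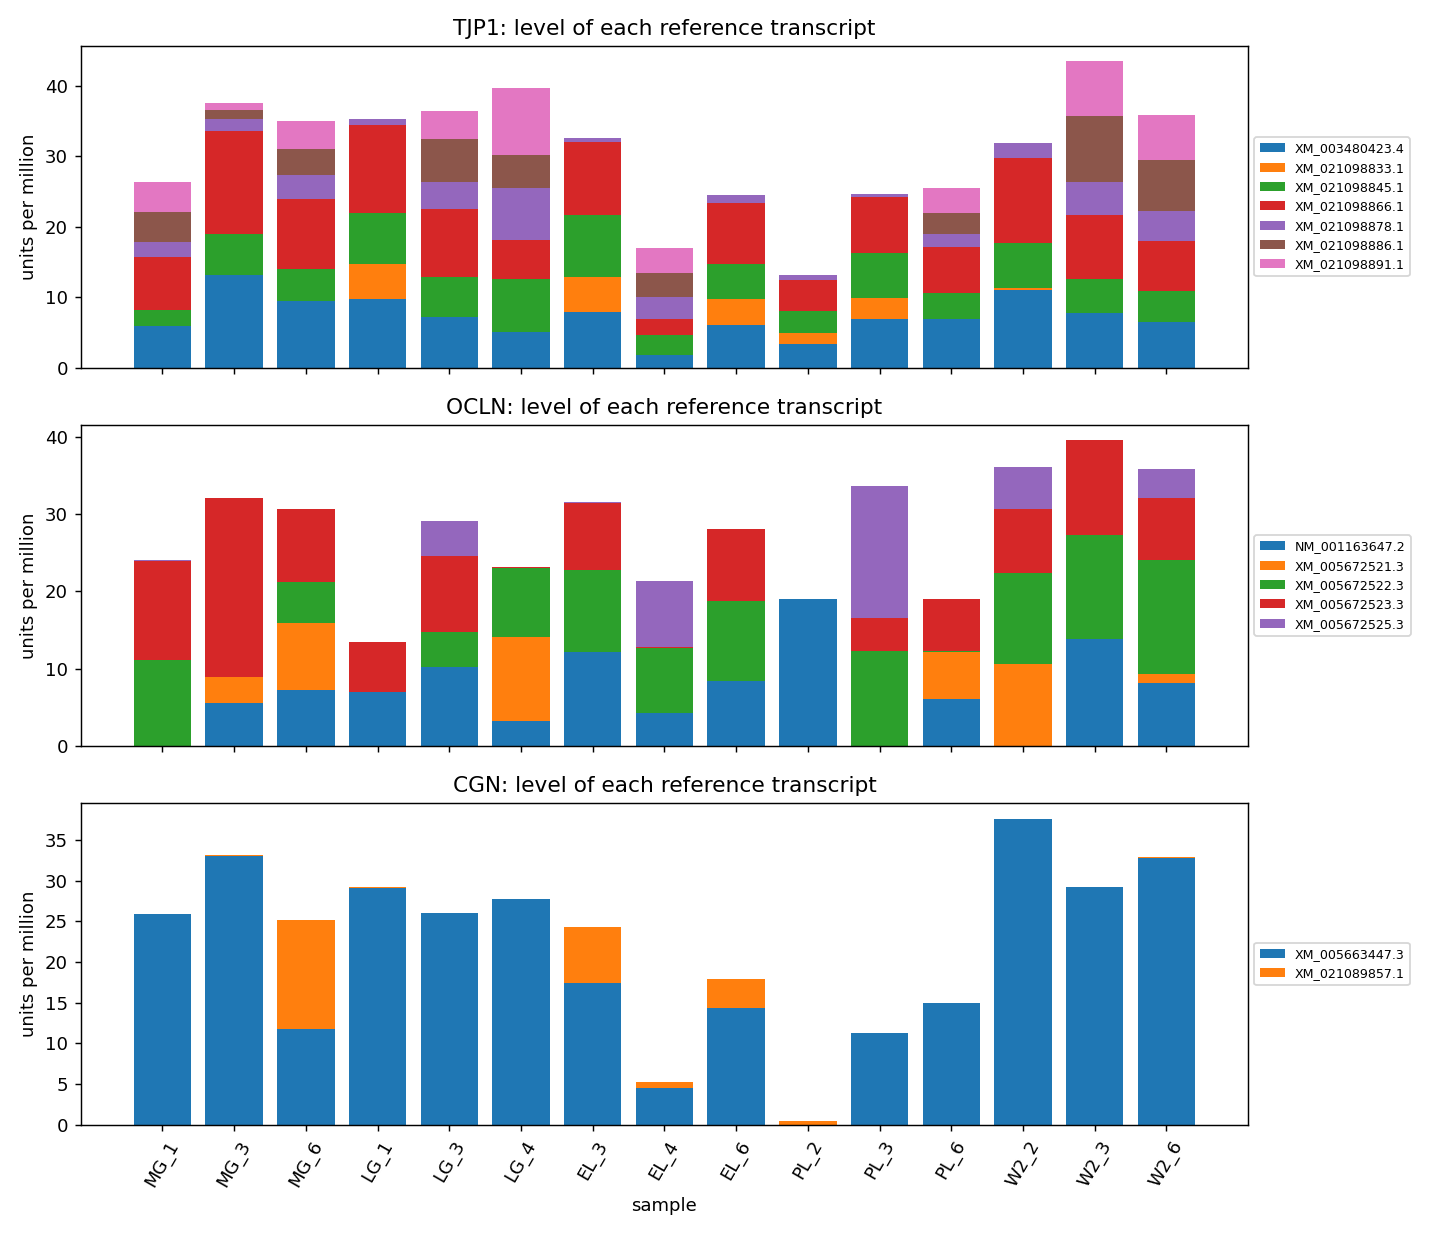
Level of each reference transcript of TJP1, OCLN and CGN in the 15 counted samples (x axis), stacked so that the bar height is the gene sum (y axis, units). TJP1 XM_021098833.1 appears in the 6 samples that lack XM_021098886.1 and XM_021098891.1, and the mixture of OCLN transcripts differs between samples of the same stage.

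A wider list of 49 tight junction genes had 38 measured. From PL to W2, 8 rose and 0 fell at an adjusted p below 0.05 (limma), a share below the 32.8% called over all gene sums, with a median log2 difference of 0.47 against 0.68 for all gene sums. Without PL_2, 6 rose and 1 fell, with a median of 0.13, beside 26.8% of all gene sums called and a median of 0.48 for all gene sums. The 8 were MAGI3, JAM3, CLDN6, TJP3, MPP5, CGNL1, SYMPK and CLDN12. CLDN6, a claudin best known from embryonic epithelia, was 0.67, 1.11 and 0.68 units in PL and 4.15, 3.47 and 9.17 units in W2, a rise of 2.11 (limma, adjusted p = 0.00099). MAGI3, a junction scaffold, rose by 1.79 (limma, adjusted p = 0.00051) and JAM3, an adhesion protein related to F11R, by 1.38 (limma, adjusted p = 0.00062). TJP3, a relative of TJP1 known as ZO-3, rose by 1.14 (limma, adjusted p = 0.0015), as did the polarity protein MPP5, also 1.14 (limma, adjusted p = 0.0038). PRKCZ, an atypical protein kinase C of the polarity complex, differed in the F test (limma, adjusted p = 0.045) with 0.33 between PL and W2 (limma, adjusted p = 0.72).

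Against MG, 0 genes of the wider list were higher in PL and 7 were lower, beside 25.2% of all gene sums called, with a median of -0.41 against -0.57 for all gene sums. Without PL_2 this became 2 higher and 5 lower, with a median of -0.11, beside 20.5% of all gene sums called and a median of -0.37 for all gene sums. Against LG, 1 was higher, PRKCZ at 1.94 (limma, adjusted p = 0.0498), and 6 were lower, beside 14.7% of all gene sums called. Against EL, 1 was lower, TJP3 at -0.87 (limma, adjusted p = 0.028), beside 4.62% of all gene sums called. Without PL_2, 2 were higher than in EL and 1 lower, beside 7.53% of all gene sums called. Under median ratio scaling 3 genes of the list were higher in W2 than in PL, MAGI3, CLDN6 and JAM3, beside 13.2% of all gene sums called in either direction. The 2 that were lower were CRB3 at -0.64 (limma, adjusted p = 0.0024) and PATJ at -2.20 (limma, adjusted p = 0.049), and the list median was -0.17.

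Among 14 genes of adherens junctions and desmosomes, the contacts that hold epithelial cells together below the tight junction, 5 rose and 0 fell from PL to W2, beside 32.8% of all gene sums called, with a median of 0.91 against 0.68 for all gene sums. Without PL_2, 4 rose and 0 fell, with a median of 0.52, beside 26.8% of all gene sums called and a median of 0.48 for all gene sums. CTNNB1 (beta-catenin), which links cadherins to the cytoskeleton, was 95.3, 289 and 245 units in PL and 620, 795 and 677 units in W2, a rise of 1.87 (limma, adjusted p = 0.0020). CDH1 (E-cadherin) rose by 1.02 (limma, adjusted p = 0.021), CTNND1 by 0.93 (limma, adjusted p = 0.012) and CTNNA1 by 0.89 (limma, adjusted p = 0.016), and NECTIN4 by 0.80 (limma, adjusted p = 0.049). NECTIN1 and DSP had larger differences, 2.21 and 1.70, that did not pass (limma, adjusted p = 0.061 and 0.094). In PL 4 genes were lower than in MG (25.2% of all gene sums called) and 2 were lower than in LG (14.7% called). Without PL_2 this was 2 lower and 1 higher than in MG (20.5% called) and 2 lower than in LG (12.4% called). CTNNB1 was the only one called between W2 and PL under median ratio scaling, at 1.14 (limma, adjusted p = 0.0070), beside 13.2% of all gene sums.

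Of 18 regulators of epithelial junctions, 7 rose and 1 fell from PL to W2, beside 32.8% of all gene sums called, with a median of 0.77. Without PL_2, 7 were higher and 4 lower, with a median of 0.43, beside 26.8% of all gene sums called and a median of 0.48 for all gene sums. The 4 were PRSS8 at -1.50, SPINT1 at -0.95, ST14 at -0.38 and ELF3 at -1.56. The 7 that rose with PL_2 included were all transcription factors. Among them were factors that sustain epithelial genes, OVOL2 at 1.34 (limma, adjusted p = 0.0020) and GRHL3 at 1.35 (limma, adjusted p = 0.0056), with OVOL1 and GRHL2. The others were factors that repress E-cadherin, SNAI2 at 2.01 (limma, adjusted p = 0.0013), TWIST1 at 1.51 (limma, adjusted p = 0.0037) and SNAI1 at 1.40 (limma, adjusted p = 0.0072). PRSS8 (prostasin), a membrane-bound serine protease, was the one that fell, from 46.4, 74.7 and 58.1 units in PL to 30.3, 21.0 and 18.9 units in W2, a difference of -1.33 (limma, adjusted p = 0.0088). Its PL samples were above all samples of the other stages, and in PL it was higher than in MG by 1.54, in LG by 1.46 and in EL by 1.25 (limma, adjusted p = 0.0057, 0.012 and 0.048). No other regulator was called higher in PL. In PL 6 were lower than in MG (25.2% of all gene sums called), 4 than in LG (14.7%) and 0 than in EL (4.62%). Without PL_2, 4 were higher and 5 lower than in MG (20.5% called). Against LG 4 were then higher and 2 lower (12.4%), and against EL 4 higher and 1 lower (7.53%). Under median ratio scaling 3 regulators were higher in W2 than in PL, SNAI2, TWIST1 and OVOL2, and 3 were lower, PRSS8, SPINT1 and ST14. This stood beside 13.2% of all gene sums called.

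**Figure D5:**
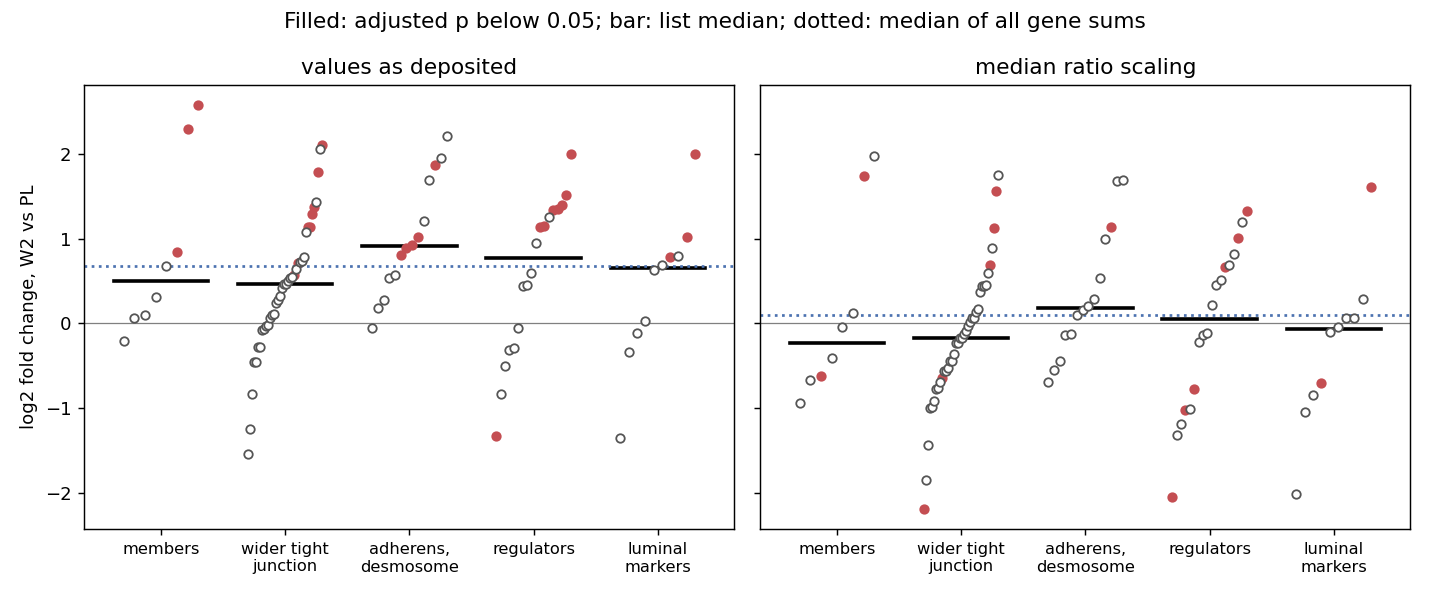
Log2 fold change in W2 against PL (y axis) for each measured gene of 5 lists (x axis), on the deposited scale and after median ratio scaling. Filled points have an adjusted p below 0.05, black bars are list medians and the dotted line is the median of all gene sums; the list median of the members was 0.50 on the deposited scale and -0.23 after scaling.

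Markers of the cell types in the tissue moved between the same stages, and their part in the results was not tested. Of 10 luminal epithelial markers 3 rose from PL to W2 and 0 fell, a share near the 32.8% called over all gene sums, with summed levels of 919 to 1907 units in PL and 1597 to 2250 units in W2. FOXA1 rose by 2.00 (limma, adjusted p = 0.0021), GATA3 by 0.79 (limma, adjusted p = 0.029), and CDH1 is given above. Of 6 measured basal or myoepithelial markers 0 were called on the deposited scale, and their sums were 880 to 2165 units in PL and 1540 to 1816 units in W2. Without PL_2, 3 of them were lower in W2, with a list median of -0.42, beside 26.8% of all gene sums called. Under quantile normalization (13.6% called) and median ratio scaling (13.2% called) 3 were also lower. Of 6 fibroblast markers 5 rose, with sums of 472 to 1087 units in PL and 1401 to 2632 units in W2. Of 7 endothelial markers 2 rose, with sums of 85.8 to 134 units in PL and 133 to 163 units in W2. Of 4 adipocyte markers 1 rose and 1 fell, with sums of 254 to 390 and 500 to 620 units. The one that fell was LEP, listed at 0 in 5 samples. Of 6 leukocyte markers 3 rose and 1 fell. The one that fell was CD14, at 9.23, 234 and 298 units in PL and 5.38, 7.90 and 6.63 units in W2, which made the leukocyte sums 18.8 to 311 units in PL and 35.3 to 45.5 units in W2. PTPRC, which marks all leukocytes, was at 0 in EL_4.

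Scaling by the 10 luminal markers was added after the data were seen. The difference of CLDN1 between W2 and PL was then 1.97 (limma, SE 0.43, adjusted p = 0.025), that of CGN 2.27 (limma, SE 0.73, adjusted p = 0.11) and that of TJP1 0.44 (limma, SE 0.34, adjusted p = 0.49). The median of the 8 genes was 0.09 and that of all gene sums 0.35. The scaling factor was the mean log2 level of the 10 markers. KRT7 among them was listed at 0 in 6 of 15 samples, including every EL sample. It differed by 6.68 on the log2 scale between PL and EL, so PL vs EL under this scaling leans on KRT7. In W2 it was 0 units in W2_2 but 80.0 and 200 units in W2_3 and W2_6, where the scaling factors were 0.951, 1.69 and 1.60. The W2 vs PL values under this scaling therefore lean in part on KRT7 as well.

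The 8 genes followed each other to different degrees over the 15 samples. Of the 28 pairs, Pearson's r on the log2 scale had a median of 0.50 and a range of 0.067 to 0.907, and it was above 0.5 in 14 pairs. CGN and TJP1 were the most alike at 0.907, followed by TJP1 and CLDN1 at 0.851 and by CGN and CLDN1 at 0.842, whereas OCLN and CLDN4 were the least alike. These values describe samples that share library scale and the low PL_2 library. The mean standardized profile of the 8 genes was lowest in PL_2, at -2.23, followed by EL_4 at -0.81 and EL_6 at -0.43, and it was highest in W2_3, at 0.71. Of 8134 other genes with a mean of at least 5 units, those with the most similar profile over the 15 samples were PPP1R9B (r = 0.979), EPHA1 (0.976), TUFT1 (0.970), PPL (0.968), RARA (0.968) and ELF1 (0.966). All 6 had their highest stage mean in W2, from 10.6 ± 0.455 units for TUFT1 to 32.7 ± 1.27 units for ELF1 (SD, n = 3).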

How the data were processed

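RNA was sequenced from mammary tissue of 30 sows. Per the labels and the methods of the study, reads were checked with FastQC, trimmed with Trimmomatic, aligned to Sscrofa11.1 with HISAT2 and assembled and quantified with StringTie. RUVs is named for unwanted variation, and whether the deposited values include it is not given in the sources used here. The authors call the deposited values FPKM, but each sample sums to 997480 to 1002643, so they were treated as TPM. The table analysed holds no reads per transcript, so precision rests on the spread between samples. A count matrix was not analysed here and no count test was run.

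Transcripts were matched to RefSeq genes of Sscrofa11.1 and summed per gene, and assembled transcripts per locus, which gave 26019 gene sums. log2(value + 0.5) was fitted with limma 3.58.1 (R 4.3.3), trended variance, 5 stages in 1 fit, 10 comparisons and Benjamini-Hochberg adjustment over all gene sums. Fold changes are on that scale, which understates changes of low genes. The methods name separate sows, and the spread within a stage is taken from 3 of them. The procedure was tested on simulated data. The 8 genes and all lists were chosen with earlier results of these data known. From each list the 6 genes with the smallest F test p were described, together with list genes that passed a named comparison, which were chosen after their values were seen. Genes of similar profile were the 6 with the highest r. Alternatives were pseudocounts of 0.1 and 1, a filter at 1 unit, quantile normalization, median ratio scaling, milk protein transcripts left out, luminal marker scaling, constant prior variance, other samples, a replicate block, the highest transcript alone, the compared stages alone, and each sample left out. Python 3.11.15, numpy 2.4.6, pandas 2.3.3 and matplotlib 3.10.9 were used for summaries.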

Additional observations from a re-analysis of the deposited data

How the results depend on the processing

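Among the 8 genes, the CLDN1 rise from PL to W2 kept its direction and passed in all 13 alternatives and all 15 samples left out. These alternatives are not all independent checks, as given above. The number of genes passing moved as follows. With all 6 samples per stage it was 2 in LG vs MG, 3 in EL vs LG, 4 in PL vs EL, 5 in W2 vs PL, 3 in EL vs MG, 3 in PL vs MG, 5 in PL vs LG, 1 in W2 vs MG, 2 in W2 vs LG, 7 in W2 vs EL and 7 in the F test, and 21 transcripts passed. These counts include the near-identical samples. With them, of all 26019 gene sums, 3688 were called in LG vs MG, 5692 in EL vs LG, 10116 in PL vs EL and 16475 in W2 vs PL. It was 10369 in EL vs MG, 15118 in PL vs MG and 13778 in PL vs LG. In W2 it was 2254 against MG, 6352 against LG and 13051 against EL. Counting the near-identical samples as 1 further sample gave 3 in PL vs MG, 3 in PL vs LG, 1 in W2 vs LG, 3 in W2 vs EL, 5 in the F test and 6 transcripts. Of all 26019 gene sums 11403 were then called in PL vs MG, 9345 in PL vs LG, 808 in W2 vs LG and 7608 in W2 vs EL. Quantile normalization gave 1 in PL vs EL (5.35% of all gene sums called) and 1 in W2 vs PL (13.6%). It gave 0 in PL vs MG (11.6%), 2 in PL vs LG (9.25%) and 2 in the F test. Median ratio scaling gave 1 in PL vs EL (5.23% of all gene sums called) and 2 in PL vs LG (8.94%). Leaving out milk protein transcripts gave 1 in W2 vs PL (23.2% of all gene sums called). Luminal marker scaling gave 1 in PL vs EL (15.2% of all gene sums called) and 1 in W2 vs PL (3.19%). It gave 0 in PL vs MG (4.19%) and 0 in the F test. A pseudocount of 1 gave 2 in PL vs MG, beside 6548 of 26019 gene sums called. The compared stages alone gave 1 in W2 vs PL, 0 in PL vs MG and 0 in PL vs LG. With each sample left out the counts were 1 to 3 in the F test, 0 to 2 in PL vs EL, 0 to 3 in PL vs LG, 0 to 2 in PL vs MG, 0 to 2 in W2 vs EL and 1 to 4 in W2 vs PL. Shares over all features are not given here for the F test and transcript counts under these settings. The same holds for the compared stages alone and for the samples left out, apart from PL_2. Such counts cannot be read as a result about the 8 genes or their transcripts.

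Directions between W2 and PL turned for CLDN4, CLDN7, CLDN8, F11R and OCLN. CLDN7 was -0.51 under quantile normalization, -0.63 under median ratio scaling, -0.23 without milk protein transcripts and -0.31 under luminal marker scaling. CLDN8 was -0.49, -0.66, -0.26 and -0.34 under these, -0.10 with all 6 samples and -0.018 with the near-identical samples as 1. F11R was -0.32, -0.41, -0.0092 and -0.091 under the first 4, and OCLN was -0.045 under median ratio scaling. With each sample left out CLDN4 ranged from -0.79 to 0.19, CLDN7 from -0.21 to 0.36, CLDN8 from -0.70 to 0.60 and F11R from -0.039 to 0.53. The CGN and TJP1 calls between W2 and PL were lost under quantile normalization, median ratio scaling, milk protein transcripts left out, luminal marker scaling, the compared stages alone and the highest transcript alone. Over the 13 alternatives CGN ranged from 1.90 to 2.90, against 2.58 as reported, and TJP1 from 0.13 to 0.86, against 0.85. The causes were not tested.

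Sample numbers came from different sows. Deviations from the stage means of same-numbered samples correlated at -0.099 to 0.133 (19 pairs), against -0.102 to 0.174 for other pairs (71 pairs). Of 15 samples 2 were closest to a sample with their own number. Between W2 and PL, which share all 3 numbers, same-numbered samples correlated at 0.048 to 0.071 and the others at -0.059 to -0.013. The reason was not tested. With the replicate block 0 genes passed in PL vs MG and 0 in PL vs LG, where CLDN1 was -1.38 and -1.26 (limma, adjusted p = 0.078 and 0.19). In W2 vs PL, 4 passed with the block, OCLN among them at 0.68 (limma, adjusted p = 0.044). Of all 26019 gene sums 2986 were called with the block in PL vs MG, 606 in PL vs LG and 7873 in W2 vs PL. Precision is limited by 3 sows per stage and by the lack of reads per transcript in the table analysed.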
